A study of Mus musculus with 28 samples.

Results

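Embryonic germ (EG) cells, a pluripotent cell type obtained by culturing mouse primordial germ cells (PGC), were compared with PGC taken from the embryo at 13.5 days post coitum (E13.5). The 8 arrays were chosen by their titles, 4 of EG cells and 4 of E13.5 PGC, out of the 28 single-colour Agilent expression arrays of a series whose title concerns the PGC methylome; PGC of E10.5 were not pooled with those of E13.5. The EG groups were male EG cells (2 arrays) and female EG cells (2 arrays), whose labels give PGC of 12.5 days post coitum as the source and Rb(X.2)2Ad X 129/Sv as the strain. The E13.5 groups were male PGC (2 arrays) and female PGC (2 arrays) of 13.5 days post coitum, strain BDF1 x TgN(deGFP)18Imeg. Cell type, source age and strain therefore differ between the groups at the same time and cannot be told apart. The labels state neither the number of EG lines behind the 4 arrays, nor their passage, nor whether feeder cells were used, nor how PGC were purified, nor whether both arrays of a group came from separate cultures or animals. The p-values therefore measure no more than how far arrays of a group spread, which may be technical. That spread was pooled over the 14 groups of all 28 arrays and is not that of the 8 arrays alone. With 2 arrays a group the precision is limited by their number. ES cells, pluripotent lines made from the early embryo (male line TMA5 and female line no5, 2 arrays each), served as a further point of comparison.

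PGC are the founders of eggs and sperm. They keep the pluripotency factor Pou5f1 while in the embryo, yet they form no other tissue there, and they lose much of their DNA methylation as they migrate to and colonise the gonad. By E13.5 they have switched on germ cell genes, and the sexes have parted: female germ cells enter meiosis under retinoic acid, and male germ cells stop dividing and are held out of meiosis by Nanos2. In culture with stem cell factor, LIF and a fibroblast growth factor, some PGC give rise to EG cells, which grow indefinitely and behave as pluripotent cells. Regulators known to affect this conversion in mice include Akt, Trp53, Prdm1 and Myc.

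Levels below are log2 processed signals minus each array's 75th percentile over probes measured on all arrays, so that 0 marks that percentile and a level compares the same probe between arrays. Values of the 4 EG arrays and of the 4 E13.5 arrays are given as male replicates 1 and 2, then female replicates 1 and 2. A probe counts as measured where the scanner software called it well above background. A gene counts as called, and as having risen or fallen in EG cells relative to E13.5 PGC, where limma's moderated test over all features gave a Benjamini-Hochberg adjusted p under 0.05. The value after ± is the standard error (SE) of a log2 difference, EG minus E13.5, over 4 arrays a side. In these bulk samples fewer cells of a type and less RNA per cell cannot be told apart.

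Between 58.0% and 59.0% of probes were well above background on the EG arrays and between 33.0% and 46.7% on the E13.5 arrays, lowest on E13.5 male replicate 2. The dimmest signal that counted as well above background lay at -9.76 to -9.37 in EG cells and at -7.96 to -4.99 in E13.5 PGC, so the low end of the PGC arrays was cut off earlier. No spot was saturated. Both replicates of a group correlated at 0.9965 in male EG cells, 0.9684 in female EG cells, 0.9625 in male PGC and 0.974 in female PGC (Pearson's r across 9876 features of one array pair each, which are not independent replicates). All EG arrays lay on 1 slide and were scanned on 1 day, and no E13.5 array shared that slide or day, so slide, scan day and cell type cannot be told apart. The E13.5 arrays lay on 2 other slides, scanned on 2 days, with replicate 1 of both sexes on one and replicate 2 on the other. Each of the 8897 features called below had the same sign against the E13.5 arrays of either day. They were called on these same arrays and both comparisons share all EG arrays, so this agreement cannot bear on the slide or day of the EG arrays. A fit with slide as a random block over all 28 arrays estimated a correlation of 0.6451 within slides and left 2372 features called, all of them in the same direction. Genes given below as higher or lower over both sexes that lost their call in that fit are given with its adjusted p, called the slide-block adjusted p.

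The labels were checked against defining genes. Ddx4, the germ cell RNA helicase, had -4.77, -4.46, -5.19 and -5.79 in EG cells, against 0.20, 1.02, 0.63 and 1.04 in E13.5 PGC, and Dnd1, an RNA-binding protein that PGC need to survive, had -2.67, -2.77, -2.64 and -2.85 in EG cells, against 1.59, 1.72, 1.05 and 1.11 in E13.5 PGC. Both were high on every E13.5 array and low on every EG array. Zfp42 (Rex1), a marker of pluripotent stem cells, had -0.66, -0.44, -0.34 and -0.22 in EG cells, against -3.52, -3.12, -4.72 and -4.24 in E13.5 PGC and separated the groups the other way. Eif2s3y, a Y-linked translation factor, had -2.71, -2.84, -9.23 and -11.97 in EG cells, against -1.99, -1.78, -8.73 and -10.25 in E13.5 PGC, so the male arrays of both cell types lay above all female ones.

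In all, 8897 of 22057 features were called between EG cells and E13.5 PGC (40.3%), 3793 higher in EG cells (17.2%) and 5104 lower (23.1%), and 36.4% of the tested features had 4 EG arrays that did not overlap the 4 E13.5 arrays. Of the tested features 9891 carried a gene symbol. The median difference over all tested features was -0.19 and depended on the scaling. The share of calls that were higher was 42.6% as scaled here, 50.6% with the percentile over all probes (median -0.04), 62.8% after quantile normalization (median 0.33), 78.1% with the deposited values (median 0.47) and 9.53% with normexp background correction (median -1.51). Small differences are therefore read against these shifts, and the ranges of each gene list over the alternative settings stand beside its median below. List counts below are likewise to be read against the 17.2% higher and 23.1% lower among all features. Of 1080 called genes for which more than 1 probe was measured, 141 had a probe of opposite sign.

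The pluripotency genes did not move as one. Over 3 lists, of core, naive and ES-type pluripotency genes, 24 of 38 tested members rose, 2 fell and the median difference was 2.01, against -0.19 over all features. Pou5f1, the central transcription factor of pluripotency, had 4.02, 3.89, 4.21 and 4.08 in EG cells, against 3.60, 4.14, 3.06 and 3.04 in E13.5 PGC. The groups overlapped, and the difference of 0.59 ± 0.42 was not called (adjusted p = 0.288). Sox2, its partner factor, had -0.08, -0.13, -0.11 and 0.74 in EG cells, against -0.87, -1.27, -0.82 and -0.97 in E13.5 PGC, and its difference of 1.09 ± 0.83 was not called either (adjusted p = 0.324), although the EG arrays lay above the E13.5 ones. Nanog had 0.06, 0.18, 0.18 and 1.02 in EG cells, against -1.29, -0.79, -2.62 and -1.91 in E13.5 PGC. This core factor rose by 2.01 ± 0.36 (adjusted p = 0.000275, slide-block adjusted p = 0.126), and its difference was 1.16 ± 0.50 in males (not called) and 2.86 ± 0.50 in females. The difference between the sexes was itself not called. Among 11 tested core genes 4 rose and 0 fell, with a median of 1.09 (0.59 to 1.74 over the 22 alternative settings); 0 higher and 0 lower remained called with the slide block. The TGF-beta ligand Gdf3 rose by 1.73 ± 0.29 (slide-block adjusted p = 0.0812). The chromatin-linked genes Utf1 (0.50 ± 0.41), Dppa2 (1.11 ± 0.43) and Dppa4 (-0.77 ± 0.31) were not called.

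Factors of the naive state, the ground state of mouse ES cells held by LIF and Wnt signals, rose in most cases. Of 14 tested genes 10 rose and 0 fell, with a median of 2.25 (1.90 to 2.91); 7 higher and 0 lower remained called with the slide block. Tbx3, a T-box factor downstream of LIF and PI3K, had -1.54, -1.49, 0.45 and 0.28 in EG cells, against -9.01, -7.21, -8.05 and -9.55 in E13.5 PGC. No E13.5 array measured it, and it was at least 63.6-fold higher in EG cells (adjusted p = 4.56e-06). Nr0b1 (Dax1), an orphan nuclear receptor on the X chromosome, had -1.23, -1.03, 0.49 and -0.37 in EG cells, against -8.72, -4.74, -8.39 and -7.96 in E13.5 PGC, again with no measured E13.5 array, and was at least 62.9-fold higher (adjusted p = 4.54e-07). Klf4 had -1.0, -1.28, -0.47 and 0.44 in EG cells, against -4.63, -5.65, -4.64 and -4.59 in E13.5 PGC, and Klf2 had 3.57, 3.36, 3.49 and 3.43 in EG cells, against 0.07, 0.06, -0.32 and -0.08 in E13.5 PGC. These Kruppel-like factors rose by 4.30 ± 0.39 and 3.53 ± 0.33 (adjusted p = 3.86e-07 and 5.81e-07), with no overlap between the groups. Esrrb, an orphan receptor that can stand in for Nanog, had 0.98, 0.99, 2.04 and 1.80 in EG cells, against -0.83, -0.69, -1.78 and -1.0 in E13.5 PGC and rose by 2.53 ± 0.23. Zfp42 rose by 3.48 ± 0.32, and Fbxo15, an F-box protein of ES cells, by 2.23 ± 0.28. Not all of the list moved. Prdm14, which represses Fgf receptor signals and is needed both for PGC and for naive cells, had -3.62, -3.16, -3.34 and -1.45 in EG cells, against -1.81, -1.78, -2.58 and -1.92 in E13.5 PGC and was not called (-0.87 ± 0.40). Tfcp2l1 (-0.63 ± 0.36) and Gbx2 (-0.22 ± 0.47), both LIF targets in ES cells, were not called either. Tcl1, a cofactor of Akt, read -1.75 ± 0.70 in males (not called) and 2.26 ± 0.70 in females, and its mean of 0.26 ± 0.49 was not called. The difference between the sexes (-4.01 ± 0.99) lost its call on leaving out any of the 8 arrays.

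**Figure D1:**
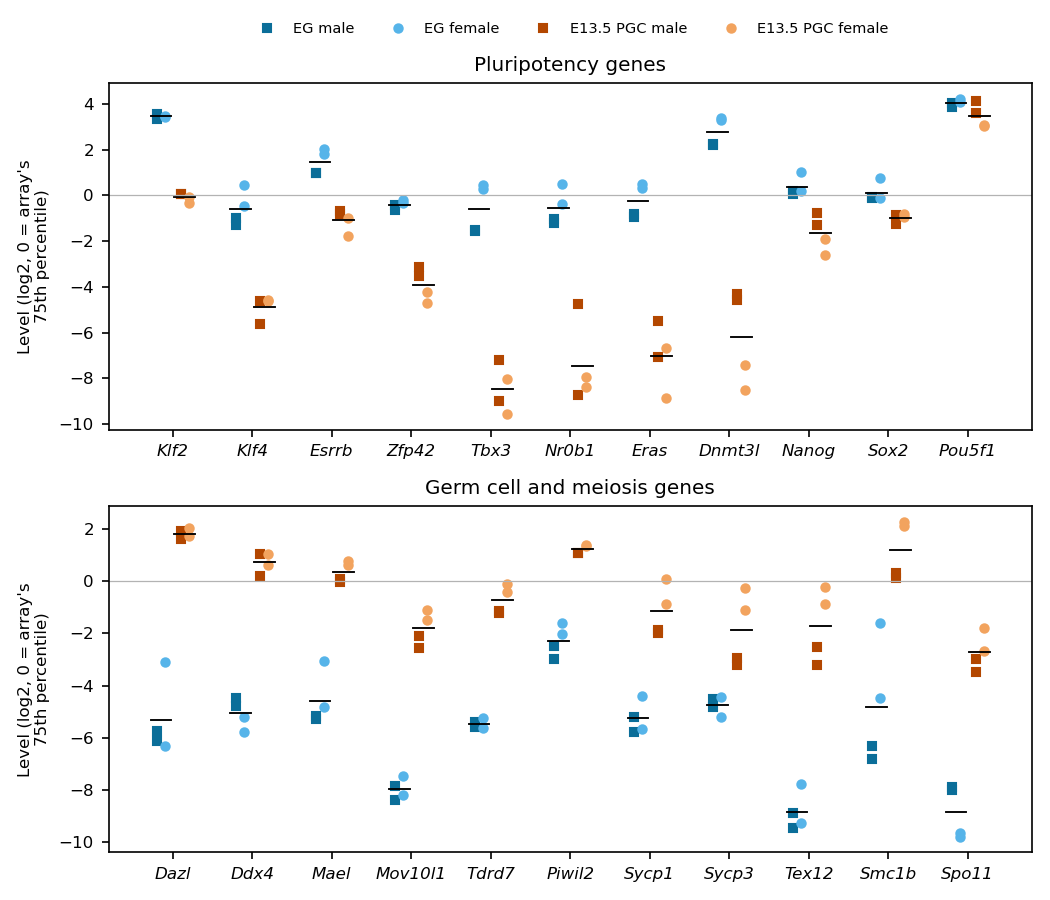
Log2 levels (relative to each array's 75th percentile) of 11 pluripotency genes and 11 germ cell genes on every array, EG cells left of E13.5 PGC; squares are male arrays, circles female arrays and black lines the mean of 4 arrays. Klf2 lay between 3.36 and 3.57 in EG cells, above all E13.5 arrays, Pou5f1 overlapped between the groups, and Ddx4 lay between -5.79 and -4.46 in EG cells, below all E13.5 arrays.

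Genes first known from ES cells included the highest rise. Of 13 tested genes 10 rose and 2 fell, with a median of 2.23 (2.03 to 3.73; 8 higher and 2 lower with the slide block). The male minus female contrast of these differences was called negative for 4 of 13 and positive for 0, against 1.09% and 1.15% of all features. Dnmt3l, the inactive cofactor that guides new DNA methylation, had 2.20, 2.22, 3.29 and 3.38 in EG cells, against -4.56, -4.33, -8.53 and -7.41 in E13.5 PGC, and its rise of 8.98 ± 0.58 was the highest of all genes that met the rule for naming. That rise was 6.66 in males and 11.30 in females. Slc7a3, an arginine transporter, had 0.20, 0.11, 0.72 and 0.52 in EG cells, against -6.25, -7.20, -8.77 and -10.18 in E13.5 PGC and rose by 8.49 ± 0.30, although only 1 E13.5 array measured it. Eras, an ES cell Ras protein on the X chromosome that activates PI3K, had -0.95, -0.82, 0.50 and 0.31 in EG cells, against -5.51, -7.05, -6.66 and -8.85 in E13.5 PGC and rose by 6.78 ± 0.76, again with 1 measured E13.5 array. Spp1 (osteopontin, 6.55 ± 0.33), the uridine phosphorylase Upp1 (5.71 ± 0.36), the junction protein Jam2 (4.28 ± 0.50) and threonine dehydrogenase Tdh (2.0 ± 0.22) rose as well. Dppa3 (Stella), a maternal factor made by PGC and by ES cells, went the other way. It had -0.70, -0.59, -1.81 and -2.45 in EG cells, against 2.18, 2.62, 0.81 and 0.84 in E13.5 PGC and fell by 3.0 ± 0.26. Trim71, a let-7 target that promotes growth, had -3.60, -3.62, -3.81 and -3.86 in EG cells, against -0.55, 0.64, -1.24 and -0.22 in E13.5 PGC and fell by 3.38 ± 0.33. In a list of primed (epiblast-type) genes 3 of 8 rose and 2 fell (median 0.40, -0.74 to 1.05; 1 higher and 1 lower with the slide block). Dnmt3b, the de novo methyltransferase of the epiblast, had 2.40, 1.69, 1.87 and 1.0 in EG cells, against -2.55, -2.55, -3.13 and -2.83 in E13.5 PGC and rose by 4.51 ± 0.23. Lef1, a Wnt effector, had -4.80, -5.15, -7.43 and -7.63 in EG cells, against -3.01, -2.86, -2.22 and -3.16 in E13.5 PGC and fell by 3.44 ± 0.27.

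Pathways that maintain naive cells were followed from receptor to target. LIF binds Lifr and Il6st, which activate Jak1 and then Stat3. Of 9 tested members 4 rose and 1 fell (median 0.51, -0.66 to 1.17), 4 higher and 1 lower with the slide block. The receptors Lifr (-0.63 ± 0.42) and Il6st (-0.06 ± 0.48) were not called. Jak1 had -2.38, -2.40, -2.08 and -1.63 in EG cells, against 0.25, 0.16, 0.60 and 0.60 in E13.5 PGC and fell by 2.53 ± 0.26. Stat3, the transcription factor of the pathway, had -1.29, -1.67, -1.24 and -2.09 in EG cells, against -3.94, -4.23, -3.11 and -3.13 in E13.5 PGC and rose by 2.03 ± 0.24. Bcl3, a co-activator and Stat3 target, had -2.12, -1.86, -1.31 and -1.30 in EG cells, against -6.29, -6.82, -5.70 and -6.43 in E13.5 PGC and rose by 4.67 ± 0.35, with 2 of 4 E13.5 arrays measured. The feedback inhibitor Socs3 and the kinase Pim3, also targets, rose by 2.87 ± 0.58 and 2.02 ± 0.20. Cish (0.51 ± 0.40) and Junb (-0.04 ± 0.56) were not called.

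Among regulators known to affect the conversion of PGC to EG cells, 3 of 14 tested rose and 9 fell (median -1.16, -1.32 to -0.41), while 1 higher and 4 lower remained called with the slide block. Kit, the receptor through which stem cell factor keeps PGC alive, had -4.74, -4.70, -5.13 and -4.30 in EG cells, against -2.16, -2.45, -1.90 and -1.70 in E13.5 PGC. It fell by 2.66 ± 0.23 (adjusted p = 2.53e-07) with no overlap. Igf1r, a receptor upstream of PI3K, fell by 2.12 ± 0.31. The kinase genes Akt1, with -1.75, -1.54, -1.85 and -2.06 in EG cells, against 0.11, -0.55, 0.62 and 0.31 in E13.5 PGC, and Akt2, with -3.79, -3.97, -3.78 and -3.90 in EG cells, against -2.16, -1.85, -2.73 and -2.38 in E13.5 PGC, fell by 1.93 ± 0.26 and 1.58 ± 0.34. Trp53, the tumour suppressor whose loss raises the frequency of EG formation in mice, had -1.09, -1.20, -1.71 and -1.92 in EG cells, against -3.41, -4.59, -4.31 and -4.51 in E13.5 PGC. Its transcript rose by 2.73 ± 0.23 (adjusted p = 1.79e-07). Myc had -2.34, -2.54, -2.67 and -2.97 in EG cells, against -5.43, -6.04, -5.04 and -5.14 in E13.5 PGC and rose by 2.78 ± 0.55 (slide-block adjusted p = 0.129), whereas Mycn was not called (0.24 ± 0.65). Prdm1 (Blimp1), the repressor that specifies PGC and whose loss in culture precedes EG formation, had -3.53, -3.60, -3.15 and -2.87 in EG cells, against -1.69, -1.33, -2.65 and -1.71 in E13.5 PGC. It fell by 1.44 ± 0.39 (adjusted p = 0.00715, slide-block adjusted p = 0.322), and the difference was -2.05 ± 0.55 in males and -0.83 ± 0.55 in females (not called). Between the sexes the Prdm1 difference was not called.

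Fibroblast growth factor signals through Fgfr proteins to ERK. In that list 4 of 11 rose and 0 fell (median 0.10, -1.09 to 0.75; 1 higher and 0 lower with the slide block). Fgfr1 (-1.1 ± 0.57) and Fgfr2 (-0.34 ± 0.65) were not called, while the receptor Fgfr4 was measured on no E13.5 array and was at least 2.33-fold higher (slide-block adjusted p = 0.0568; fitted difference -0.50 with normexp). The ERK target Etv4 of the primed list was not called (0.41 ± 0.49). Egr1, an immediate early target of ERK, had 0.87, 0.13, -0.73 and -1.84 in EG cells, against -4.58, -3.52, -5.82 and -5.10 in E13.5 PGC and rose by 4.36 ± 0.51. The feedback inhibitors Spry2 and Dusp6 rose by 2.18 ± 0.49 and 1.17 ± 0.31 (slide-block adjusted p = 0.155 and 0.326). In the Wnt list 1 of 11 rose and 6 fell (median -1.36, -2.27 to 0.0), and 1 higher and 0 lower remained with the slide block. Beta-catenin (Ctnnb1) was not called (-0.19 ± 0.18). Tcf7l1 (Tcf3), which represses pluripotency genes in the absence of Wnt, had 0.10, -0.07, 0.13 and -0.23 in EG cells, against -2.04, -2.02, -2.24 and -2.10 in E13.5 PGC and rose by 2.08 ± 0.29, the 1 gene of the list kept by the slide block. The receptor Fzd10 fell by 2.59 ± 0.49 and the Wnt target Sp5 by 3.49 ± 0.77 (slide-block adjusted p = 0.152 and 0.261). T (Brachyury), a mesoderm and Wnt target gene, had -1.22, -1.73, -5.78 and -8.28 in EG cells, against -5.51, -6.59, -6.71 and -6.26 in E13.5 PGC. Both male EG arrays lay above the other 6, and the mean difference of 2.01 ± 1.12 was not called.

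**Figure D2:**
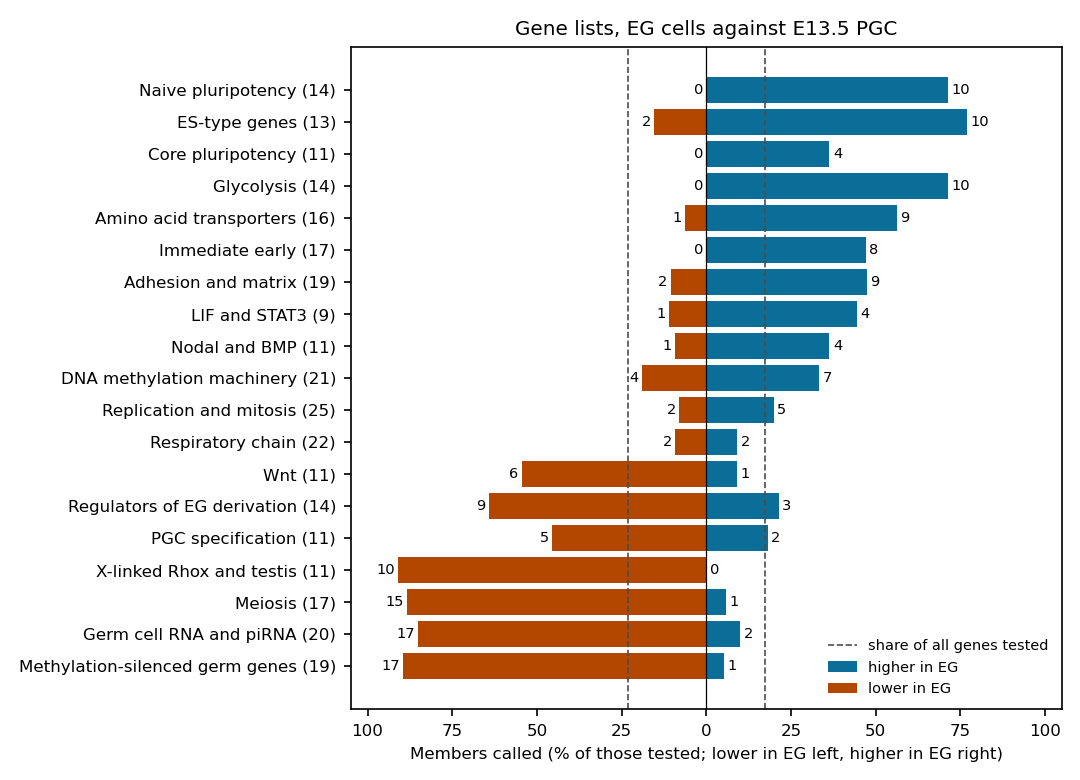
Percent of tested genes called higher or lower in EG cells than in E13.5 PGC in 19 gene lists, with the counts printed on the bars; dashed lines mark the 17.2% higher and 23.1% lower among all tested features. Naive, ES-type, glycolysis and transporter lists lean to higher levels in EG cells, and germ cell, meiosis and methylation-dependent germline lists to lower ones.

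The germ cell programme was low in EG cells. Over the lists of germ cell RNA regulators, meiosis and methylation-dependent germline genes, 39 of 46 tested members fell, 4 rose and the median was -4.08. Dazl, an RNA-binding protein that licenses germ cells for gamete formation, had -6.12, -5.72, -6.30 and -3.09 in EG cells, against 1.62, 1.92, 1.73 and 2.03 in E13.5 PGC and fell by 7.14 ± 0.52 (adjusted p = 3.98e-08). It was low on all 4 EG arrays, and higher on female replicate 2 than on the other 3. Ddx4 (Vasa), whose values stand above, fell by 5.78 ± 0.35. Dnd1 fell by 4.10 ± 0.26, while Nanos3, the translational regulator that protects migrating PGC, had -2.26, -1.49, -3.42 and -3.53 in EG cells, against -1.07, -1.47, -2.31 and -3.05 in E13.5 PGC and was not called (-0.70 ± 0.36). Tfap2c, which specifies PGC, had 0.12, 0.39, -0.38 and -0.04 in EG cells, against -0.96, -0.86, -0.20 and 0.34 in E13.5 PGC and was not called (0.44 ± 0.35). In the list of PGC specification genes as a whole 2 of 11 rose and 5 fell (median -0.70, -1.66 to -0.05; 0 higher and 3 lower with the slide block).

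The germ cell RNA list also holds genes of the piRNA pathway, the small RNA system that silences transposons in germ cells. Piwil2 (Mili), which binds piRNAs, had -2.98, -2.48, -2.04 and -1.59 in EG cells, against 1.1, 1.07, 1.38 and 1.37 in E13.5 PGC and fell by 3.50 ± 0.20. Mov10l1, the helicase that starts piRNA processing, had -8.39, -7.86, -8.18 and -7.45 in EG cells, against -2.10, -2.55, -1.12 and -1.48 in E13.5 PGC and fell by 6.16 ± 0.47. Mael, of the nuage granule, had -5.29, -5.17, -4.83 and -3.07 in EG cells, against -0.05, 0.07, 0.61 and 0.79 in E13.5 PGC and fell by 4.95 ± 0.34. The piRNA pathway genes Fkbp6 (-5.91 ± 0.38), Tdrd7 (-4.74 ± 0.24), Exd1 (-4.07 ± 0.23), Rnf17 (-4.06 ± 0.30) and Tex15 (-3.58 ± 0.26) fell as well. Exceptions were Morc1, a chromatin ATPase that silences transposons, with -0.68, -0.48, -0.22 and -0.13 in EG cells, against -3.46, -2.12, -4.49 and -4.23 in E13.5 PGC and a rise of 3.20 ± 0.37, and the Tudor protein Tdrd12, which rose by 1.16 ± 0.23 (slide-block adjusted p = 0.166). Counts for the germ cell RNA list were 17 lower and 2 higher of 20 tested (median -4.06, -4.09 to -1.76), or 1 higher and 13 lower with the slide block.

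Of 17 tested meiotic genes 15 fell and 1 rose, with a median of -4.10, or -3.57 with unmeasured members at their bounds (-4.34 to -0.90 over the settings; 0 higher and 11 lower with the slide block). For the synaptonemal complex, which joins paired chromosomes, Sycp1 had -5.77, -5.22, -5.66 and -4.39 in EG cells, against -1.85, -1.98, 0.09 and -0.88 in E13.5 PGC and Sycp3 had -4.83, -4.52, -4.45 and -5.20 in EG cells, against -2.94, -3.21, -0.26 and -1.09 in E13.5 PGC. They fell by 4.10 ± 0.41 and 2.88 ± 0.32. Tex12, of its central element, had -9.45, -8.89, -9.27 and -7.76 in EG cells, against -2.53, -3.20, -0.24 and -0.87 in E13.5 PGC and fell by 7.13 ± 0.31. The meiotic cohesin gene Smc1b had -6.83, -6.33, -4.47 and -1.62 in EG cells, against 0.31, 0.13, 2.27 and 2.11 in E13.5 PGC and fell by 6.01 ± 0.44, and Stag3, of the same complex, fell by 3.57 ± 0.31. Spo11, whose product cuts DNA to start recombination, had -7.99, -7.90, -9.79 and -9.64 in EG cells, against -3.46, -3.0, -1.79 and -2.66 in E13.5 PGC and fell by 6.10 ± 0.30. The recombinase Dmc1 fell by 3.0 ± 0.34. Terb1, which ties telomeres to the nuclear envelope, was measured on no EG array and was at least 12.4-fold lower (adjusted p = 9.67e-05, slide-block adjusted p = 0.0606). The falls were not limited to females, where meiosis begins at this stage: Sycp1 differed by -3.58 ± 0.59 in males and -4.63 ± 0.59 in females, and Smc1b by -6.80 ± 0.62 and -5.23 ± 0.62. In the list 10 of 13 fell in males and 15 of 17 in females, against 13.3% and 18.5% of all features. The male minus female contrast of these differences was called positive for 4 of 17 and negative for 0, against 1.15% and 1.09% of all features. Stra8 and Rec8, given below, were not called in males.

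A list of germline genes known to be held silent by promoter DNA methylation in somatic and pluripotent cells fell in 17 of 19 cases and rose in 1 (median -4.50, -4.88 to -1.82), and 0 higher and 15 lower remained called with the slide block. Several of its members stand in the 2 lists above too. Slc25a31, an ADP/ATP carrier of germ cells, had -8.60, -8.48, -8.66 and -6.69 in EG cells, against -2.32, -2.05, -1.23 and -1.43 in E13.5 PGC and fell by 6.35 ± 0.40. Brdt, a testis bromodomain protein, had -9.12, -9.62, -8.89 and -9.32 in EG cells, against -2.69, -2.97, -2.76 and -3.16 in E13.5 PGC and fell by 6.34 ± 0.36. Tex101, a germ cell surface protein, fell by 5.92 ± 0.28, and X-linked Tex11 by 4.50 ± 0.29.

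Promoter letters of these genes were read because the members fell together. The 250 bases before the start of transcription were taken from RefSeq (build GRCm38.p6), which held 33 of the 39 germ cell and meiosis list genes that fell. The motif CACGTG, its own reverse complement and a sequence that dimers of the MAX family bind, was in 16 of the 33 (48.5%). It was in 2 of 16 pluripotency list genes that rose (12.5%), in 780 of 7923 named genes tested (9.84%) and in 9.34% of named genes that fell. These shares are over genes with a promoter in RefSeq, and a gene counted if any of its promoters held the motif. Counted by single promoters, an unlike unit, it was in 6.02% of all 32851 promoters in the table. The motif TCCCGC on either strand (TCCCGC or GCGGGA, the letters E2F factors bind), which can share 1 end letter with the first where both stand side by side, was in 33.3% of the 33 genes and in 33.2% of all named genes tested, counted by gene in the same way. The lists were not chosen at random, these shares are descriptions without a test, and a match of letters shows no binding. The 5 promoters of genes that fell and that hold the motif are printed first, then that of Dazl, which fell and does not hold it, and that of Eras, which rose and does not hold it. All run 5′ to 3′ on the gene's own strand and end at the base before the start. Capitals mark CACGTG, which begins 29 bases before the start in Ddx4 (chr13:112652311-112652560, minus strand), 93 in Slc25a31 (chr3:40708621-40708870, plus), 78 in Brdt (chr5:107330944-107331193, plus) and 223 in Mael (chr1:166238745-166238994, minus), and of which Fkbp6 (chr5:135350045-135350294, minus) holds 2 copies, the first 101 bases before the start. Dazl lies at chr17:50293621-50293870 (minus) and Eras at chrX:7928608-7928857 (minus).
Ddx4: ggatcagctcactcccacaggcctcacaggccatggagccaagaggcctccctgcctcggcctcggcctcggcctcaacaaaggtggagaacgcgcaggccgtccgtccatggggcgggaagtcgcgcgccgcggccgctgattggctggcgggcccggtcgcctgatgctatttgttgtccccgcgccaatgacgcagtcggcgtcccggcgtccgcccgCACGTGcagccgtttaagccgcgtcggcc
Slc25a31: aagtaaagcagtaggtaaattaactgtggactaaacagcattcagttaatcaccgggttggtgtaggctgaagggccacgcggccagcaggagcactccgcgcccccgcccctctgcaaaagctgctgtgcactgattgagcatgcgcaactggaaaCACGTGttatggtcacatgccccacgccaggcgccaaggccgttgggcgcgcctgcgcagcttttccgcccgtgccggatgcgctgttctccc
Brdt: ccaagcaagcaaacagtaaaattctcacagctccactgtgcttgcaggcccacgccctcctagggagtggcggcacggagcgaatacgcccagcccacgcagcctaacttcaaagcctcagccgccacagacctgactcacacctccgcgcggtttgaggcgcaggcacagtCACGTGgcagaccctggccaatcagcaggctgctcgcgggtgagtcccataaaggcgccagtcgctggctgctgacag
Mael: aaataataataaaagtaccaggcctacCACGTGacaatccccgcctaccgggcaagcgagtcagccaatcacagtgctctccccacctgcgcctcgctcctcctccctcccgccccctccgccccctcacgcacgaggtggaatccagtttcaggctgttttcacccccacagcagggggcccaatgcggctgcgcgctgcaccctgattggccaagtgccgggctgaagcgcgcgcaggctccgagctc
Fkbp6: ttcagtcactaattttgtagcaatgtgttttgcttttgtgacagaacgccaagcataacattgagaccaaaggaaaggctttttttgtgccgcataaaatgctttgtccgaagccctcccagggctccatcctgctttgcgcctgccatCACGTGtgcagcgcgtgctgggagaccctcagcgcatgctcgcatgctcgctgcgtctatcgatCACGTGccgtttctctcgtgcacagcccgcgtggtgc
Dazl: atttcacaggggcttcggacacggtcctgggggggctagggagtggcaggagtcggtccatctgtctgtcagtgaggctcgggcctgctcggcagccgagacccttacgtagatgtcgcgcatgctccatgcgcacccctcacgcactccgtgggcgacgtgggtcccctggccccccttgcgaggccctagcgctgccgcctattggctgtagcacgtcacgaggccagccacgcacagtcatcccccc
Eras: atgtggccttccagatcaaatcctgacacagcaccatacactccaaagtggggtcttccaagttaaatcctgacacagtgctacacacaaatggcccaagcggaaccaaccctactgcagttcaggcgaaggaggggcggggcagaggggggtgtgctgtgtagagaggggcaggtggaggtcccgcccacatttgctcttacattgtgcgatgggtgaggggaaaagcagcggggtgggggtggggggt

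Genes of proteins that bind such promoters or set marks on them were called in both directions or not at all. Max was not called (0.05 ± 0.17), nor were its partner Mga (0.36 ± 0.30), E2f6 (-0.83 ± 0.53), the H3K9 methyltransferase Setdb1 (-0.55 ± 0.26) or its partner Trim28 (-0.12 ± 0.22). In the list of repressors of germline genes 3 of 14 rose and 4 fell (median -0.33, -0.61 to 0.32), against 17.2% higher and 23.1% lower over all features. With the slide block 0 higher and 1 lower remained called.

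Genes of DNA methylation were called in both directions, as were features at large (17.2% higher and 23.1% lower of all tested). Of 21 tested genes 7 rose and 4 fell (median -0.13, -0.75 to 0.52), 5 higher and 1 lower with the slide block. The de novo genes Dnmt3b and Dnmt3l rose as given above, while Dnmt3a, the other de novo enzyme, had -4.39, -4.46, -4.42 and -3.98 in EG cells, against -3.33, -4.49, -3.37 and -3.59 in E13.5 PGC and was not called (-0.62 ± 0.27). Its probes disagreed: another, measured on all 4 EG and all 4 E13.5 arrays, differed by 1.04, and the remaining ones by -0.49 to -0.18. Dnmt1, which copies methylation after replication, had -2.24, -2.55, -2.01 and -1.93 in EG cells, against -0.70, -0.72, -0.27 and -0.12 in E13.5 PGC. It fell by 1.73 ± 0.35 (adjusted p = 0.000889) with no overlap. Tdg, a glycosylase that acts in active demethylation, had -2.99, -3.28, -3.42 and -3.64 in EG cells, against -6.81, -6.31, -6.45 and -5.49 in E13.5 PGC and rose by 2.93 ± 0.29, with 1 measured E13.5 array. Apobec1, a cytidine deaminase, was measured on no E13.5 array and was at least 7.26-fold higher (adjusted p = 0.000209). Gadd45a, a stress protein linked to repair and demethylation, rose by 2.70 ± 0.40. Cxxc5 fell by 1.24 ± 0.22 (slide-block adjusted p = 0.111).

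Of 19 tested Polycomb and other histone enzyme genes 5 rose and 6 fell (17.2% and 23.1% over all features), with a median of -0.02 (-0.26 to 0.63). Only 3 higher and 0 lower remained called with the slide block. Cbx7, the main Polycomb reader of mouse ES cells, had -0.34, -0.25, -0.10 and 0.21 in EG cells, against -2.02, -2.10, -2.49 and -2.51 in E13.5 PGC and rose by 2.16 ± 0.20, whereas Cbx2 fell by 1.88 ± 0.33 (slide-block adjusted p = 0.105). Eed, a core subunit of the H3K27 methyltransferase complex, rose by 1.74 ± 0.26, and its catalytic subunit Ezh2 was not called (-0.02 ± 0.23). Kdm4c, an H3K9 demethylase of ES cells, rose by 2.53 ± 0.41. Among imprinted genes, maternally expressed Cdkn1c, a cell cycle inhibitor, had -3.24, -3.13, -2.83 and -3.67 in EG cells, against -0.95, -0.78, -0.09 and -0.05 in E13.5 PGC and fell by 2.75 ± 0.30. Paternally expressed Impact (4.32 ± 0.37), Slc38a4 (2.95 ± 0.33) and Mest (2.09 ± 0.28) rose, and Copg2 (-2.19 ± 0.27) and Ndn (-2.61 ± 0.46) fell. Counts were 3 higher and 1 lower of 8 maternal and 7 higher and 4 lower of 18 paternal genes. With the slide block they were 0 higher and 1 lower for maternal and 3 higher and 2 lower for paternal genes.

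**Figure D3:**
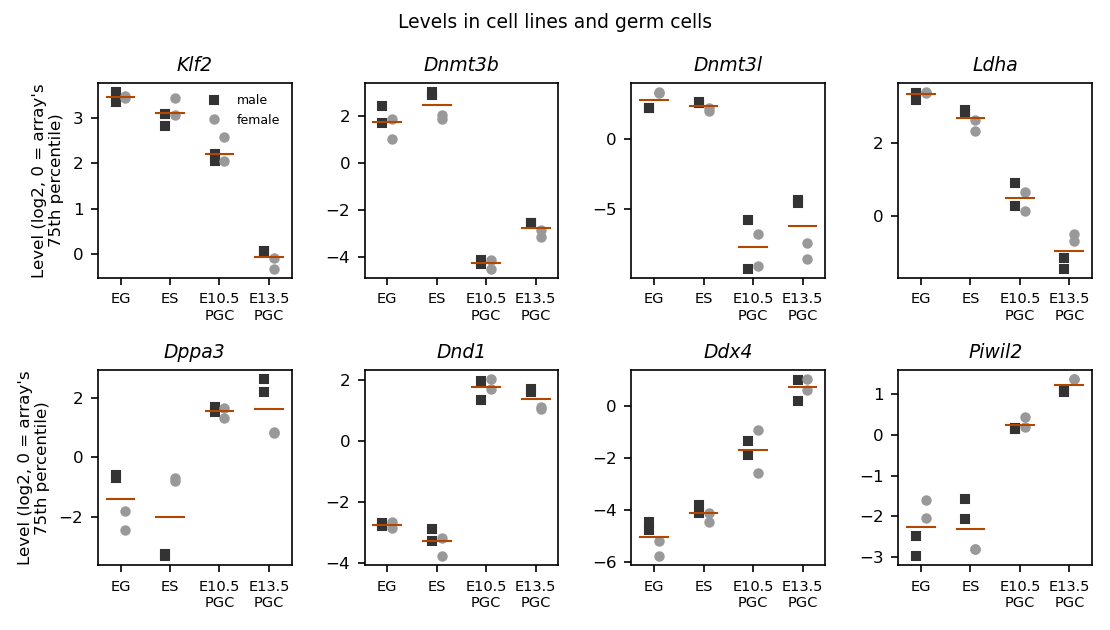
Log2 levels of 8 genes in EG cells, ES cells, E10.5 PGC and E13.5 PGC, 1 point per array. In EG cells Klf2, Dnmt3b, Dnmt3l and Ldha lie above, and Dppa3, Dnd1, Ddx4 and Piwil2 below, every E13.5 array.

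EG cells were set against ES cells to place these differences. Between EG and ES cells 1144 of 23224 features were called (4.93%), against 40.3% between EG cells and E13.5 PGC. The count was 316 without EG male replicate 2, 333 without EG male replicate 1 and 714 without EG female replicate 1; with slide as a random block limma called 0 (294 at an unadjusted p under 0.05). Of the 14 naive and 11 core genes 0 were called in either direction with the fit used here. Klf2 lay at 3.36 to 3.57 on the EG arrays and at 2.82 to 3.44 on the ES arrays. PGC of the 2 stages gave 2.04 to 2.57 at E10.5 and -0.32 to 0.07 at E13.5 for the same probe. The Dnmt3l level was 2.20 to 3.38 on EG arrays and 1.99 to 2.68 on ES arrays, and -9.25 to -5.73 in E10.5 PGC and -8.53 to -4.33 in E13.5 PGC. For Ddx4 the EG arrays gave -5.79 to -4.46 and the ES arrays -4.47 to -3.81, the E10.5 PGC -2.57 to -0.93 and the E13.5 PGC 0.20 to 1.04. Dnd1 was already high at E10.5 (1.35 to 2.03), and so was Piwil2 (0.15 to 0.44). None of these 5 genes was called between EG and ES cells. Trim71 was an exception, lower in EG cells than in ES cells by 3.09 (EG minus ES -3.09 ± 0.33, adjusted p = 0.000137). Germline genes differed here too: of 19 tested methylation-dependent germline genes 0 were higher and 8 lower in EG than in ES cells (background 3.37% higher and 1.55% lower), among them Slc25a31 (-1.68 ± 0.40), Fkbp6 (-1.74 ± 0.38), Tex11 (-1.56 ± 0.29) and Mael (-1.26 ± 0.34). Both comparisons share the EG arrays.

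Genes of sugar metabolism rose in most cases outside the cell identity lists. Of 14 tested genes of glucose uptake and glycolysis 10 rose and 0 fell, with a median of 1.85 (1.47 to 2.50), and 7 higher and 0 lower remained called with the slide block. Ldha, which turns pyruvate into lactate, had 3.37, 3.18, 3.38 and 3.40 in EG cells, against -1.45, -1.16, -0.69 and -0.51 in E13.5 PGC and rose by 4.28 ± 0.22 (adjusted p = 1.41e-09). The glucose transporter Slc2a1 had 1.18, 1.19, 0.72 and 1.81 in EG cells, against -1.22, -0.70, -2.64 and -2.37 in E13.5 PGC and rose by 2.96 ± 0.24. Hexokinase Hk2, the first step, had -0.55, -0.53, -0.13 and 0.27 in EG cells, against -2.96, -2.73, -3.96 and -3.78 in E13.5 PGC and rose by 3.12 ± 0.20. Tpi1 (2.93 ± 0.22), the phosphofructokinase gene Pfkp (2.83 ± 0.23), Aldoa (2.17 ± 0.24) and Aldoc (1.88 ± 0.20) rose too. The isozyme genes Hk1 (-0.97 ± 0.42), Ldhb (-0.32 ± 0.26) and Pfkm (-0.29 ± 0.24) were not called over both sexes, and Pfkm fell by 1.44 ± 0.33 in females. Among respiratory chain genes 2 of 22 rose, 2 fell and the median was -0.09 (-0.21 to 0.56); 0 higher and 0 lower remained called with the slide block.

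Amino acid transporters rose in 9 of 16 cases and fell in 1 (median 1.70, 0.19 to 2.36; 5 higher and 0 lower with the slide block). Besides Slc7a3 these included the cationic carrier Slc7a1 (2.10 ± 0.25), the neutral carriers Slc38a2 (2.26 ± 0.25) and Slc1a5 (2.19 ± 0.25) and the glutamate carrier Slc1a3 (3.11 ± 0.55, slide-block adjusted p = 0.106). Of 19 tested adhesion and matrix genes 9 rose and 2 fell (median 0.88, 0.44 to 1.54; 3 higher and 0 lower with the slide block). Cldn4, a tight junction claudin, had -2.84, -2.54, -0.19 and -0.80 in EG cells, against -9.12, -7.30, -8.87 and -10.26 in E13.5 PGC, was measured on no E13.5 array and was at least 31.5-fold higher. Cldn6 rose by 3.25 ± 0.30 and Lamc1, a laminin chain of the basement membrane, by 2.65 ± 0.33. E-cadherin (Cdh1) rose by 1.49 ± 0.30 (slide-block adjusted p = 0.0985), with 0.65 ± 0.43 in males (not called) and 2.33 ± 0.43 in females. Its difference between the sexes was not called.

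The cell cycle list gave 4 higher and 7 lower of 20 (median -0.52, -1.08 to 0.13; 1 higher and 4 lower with the slide block). The lowest value was that of Ccnb3, a cyclin of meiosis, which no EG array measured and which was at least 7.54-fold lower (slide-block adjusted p = 0.0503). Among inhibitors of G1, the retinoblastoma gene Rb1 had -4.63, -4.51, -4.02 and -3.81 in EG cells, against -1.84, -1.94, -1.70 and -1.43 in E13.5 PGC and fell by 2.51 ± 0.19, the CDK4 inhibitor Cdkn2c fell by 2.88 ± 0.34, and Cdkn1c fell as given above. Cdkn1a (p21), a Trp53 target, rose by 1.34 ± 0.32 (slide-block adjusted p = 0.296). Replication and mitosis genes gave 5 higher and 2 lower of 25 (median 0.08; 2 higher and 0 lower with the slide block), with Rrm2, a ribonucleotide reductase subunit, up by 1.78 ± 0.18 and Birc5 (survivin) by 1.33 ± 0.20, while 6 tested Mcm helicase and loading genes (Mcm2, Mcm3, Mcm4, Mcm5, Mcm6 and Mcm7) were not called. Immediate early genes, which stimulation and handling of cells switch on within minutes, gave 8 higher and 0 lower of 17 (median 1.62, or 1.20 with bounds, -0.01 to 2.27; 2 higher and 0 lower with the slide block). Ier2 rose by 2.17 ± 0.25, whereas Fos had -3.35, -3.98, -4.67 and -7.44 in EG cells, against -3.95, -4.62, -3.56 and -4.39 in E13.5 PGC and was not called over both sexes (-0.73 ± 0.49), with 0.62 ± 0.69 in males (not called) and -2.08 ± 0.69 in females (called). For Fos, too, the difference between the sexes was not called.

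By sex, 4940 of 21090 features were called in males (23.4%, 10.1% higher and 13.3% lower in EG cells) and 6818 of 20761 in females (32.8%, 14.3% higher and 18.5% lower), with 2 arrays a side. The male count was 2551 without EG male replicate 1 and 2500 without EG male replicate 2. The difference between the sexes was tested as an interaction, the male EG minus E13.5 difference minus the female one. It called 495 of 22057 features (2.24%), 254 of them positive (1.15%) and 241 negative (1.09%), a count that rested on few arrays: it lay between 145 (without EG male replicate 1) and 898 (without E13.5 male replicate 1), and was 3 with only the 8 arrays in the fit. Genes are named here by the size of this value or from the lists. For Lefty1, Lefty2, Cst9, Prom1, Phlda2, Msx2, Pmaip1, Rec8, Ccnd1, Id3, Rhox6 and Rhox9 the call held on leaving out each of the 8 arrays.

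Nodal antagonists showed a wide contrast between the sexes. Nodal acts in male germ cells of the fetal testis as well as in ES cells, and Lefty1 and Lefty2 are its targets and inhibitors. Lefty1 had 1.95, 2.12, 2.60 and 2.76 in EG cells, against 2.06, 2.59, -5.43 and -4.76 in E13.5 PGC. Male PGC thus lay at EG levels and female PGC far below, so that the EG minus E13.5 difference was -0.29 ± 0.58 in males (not called) and 7.77 ± 0.58 in females (interaction -8.07 ± 0.83, adjusted p = 0.000197). Lefty2, with -0.09, 0.72, 0.01 and 0.09 in EG cells, against 0.07, -0.38, -8.42 and -9.33 in E13.5 PGC, behaved alike (interaction -8.45 ± 1.02). Nodal itself read 0.12 ± 0.78 in males (not called) and 4.32 ± 0.78 in females, but its interaction of -4.20 ± 1.11 was not called (adjusted p = 0.0609, and 0.0339 with replicate number as a block). Nanos2, the male repressor of meiosis, had -11.39, -11.50, -11.63 and -11.66 in EG cells, against -0.15, 0.03, -7.10 and -7.32 in E13.5 PGC. It was measured on no EG array and was at least 705-fold lower in male EG cells than in male PGC.

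On the female side, Stra8, which retinoic acid induces as germ cells enter meiosis, had -4.44, -2.79, -4.46 and -1.02 in EG cells, against -4.72, -5.69, 3.34 and 2.87 in E13.5 PGC. The difference was 1.58 ± 1.14 in males (not called) and -5.85 ± 1.14 in females. Its interaction of 7.43 ± 1.61 (adjusted p = 0.0219) was lost on leaving out any of 6 single arrays, and EG female replicate 2 lay above the other 3 EG arrays. Rec8, a meiotic cohesin, had -5.18, -5.02, -5.47 and -5.30 in EG cells, against -4.60, -4.25, 0.25 and -0.38 in E13.5 PGC, with -0.68 ± 0.47 in males (not called), -5.32 ± 0.47 in females and an interaction of 4.64 ± 0.66. Among BMP targets Id1 had 0.12, -1.23, -1.84 and -0.62 in EG cells, against -4.11, -3.94, 0.54 and 0.51 in E13.5 PGC, rose by 3.47 ± 0.65 in males and fell by 1.76 ± 0.65 in females (interaction 5.22 ± 0.93, lost without EG male replicate 1 at adjusted p = 0.0525), and Id3 rose by 1.61 ± 0.49 in males and fell by 2.44 ± 0.49 in females (interaction 4.05 ± 0.69). Their relative Id2 rose by 2.43 ± 0.50 in males and read 0.46 ± 0.50 in females (not called), and its interaction of 1.97 ± 0.70 was not called. Cyclin D1 (Ccnd1), which drives G1, had 0.08, 0.09, 0.02 and -1.07 in EG cells, against -4.21, -4.09, -0.40 and -0.91 in E13.5 PGC. It rose by 4.24 ± 0.39 in males and read 0.13 ± 0.39 in females (interaction 4.11 ± 0.56). The X-linked homeobox genes Rhox6 and Rhox9 read 0.71 ± 0.34 and -0.72 ± 0.35 in males (not called) and fell by 3.31 ± 0.34 and 4.70 ± 0.35 in females.

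The 6 highest and 6 lowest interactions that met the rule for naming were Cdx2 (9.17 ± 1.76), Phlda2 (7.58 ± 0.76), Stra8, the stem cell surface protein gene Prom1 (7.39 ± 1.0), the homeobox genes Pitx1 (6.71 ± 1.66) and Msx2 (6.54 ± 0.73), and Cst9 (-10.65 ± 1.51), Lefty2, Lefty1, Nanos2 (-6.95 ± 1.45), the tetraspanin gene Tspan32 (-6.92 ± 1.35) and the Trp53 target Pmaip1 (-6.81 ± 1.14). The calls of Cdx2, Pitx1, Nanos2 and Tspan32 were lost on leaving out 3, 8, 6 and 5 single arrays. Prom1 had -2.16, -2.49, -4.33 and -3.81 in EG cells, against -7.06, -7.28, -1.45 and -1.61 in E13.5 PGC, high in female PGC and low in male PGC with EG cells between. Of 12 tested markers of the gonad's supporting cells, 1 was called positive and 3 negative for the interaction, and 8 were not called. Among the called were Cst9 and Irx3. Cst9, of Sertoli cells, had -10.29, -9.27, -8.63 and -4.91 in EG cells, against -0.20, -1.75, -7.25 and -9.96 in E13.5 PGC. Irx3, of pregranulosa cells, had -7.49, -6.22, -9.16 and -9.66 in EG cells, against -9.11, -7.30, -4.46 and -4.36 in E13.5 PGC. Over 16 Sertoli and pregranulosa markers with a probe the log2 of the mean level was -5.19 to -5.04 in male EG cells, -5.92 to -5.76 in female EG cells, -3.70 to -2.62 in male PGC and -5.75 to -5.70 in female PGC, with 9 to 12 of 16 measured in male PGC and 8 to 10 in female PGC. The part of these cells in the sex contrast was not tested.

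**Figure D4:**
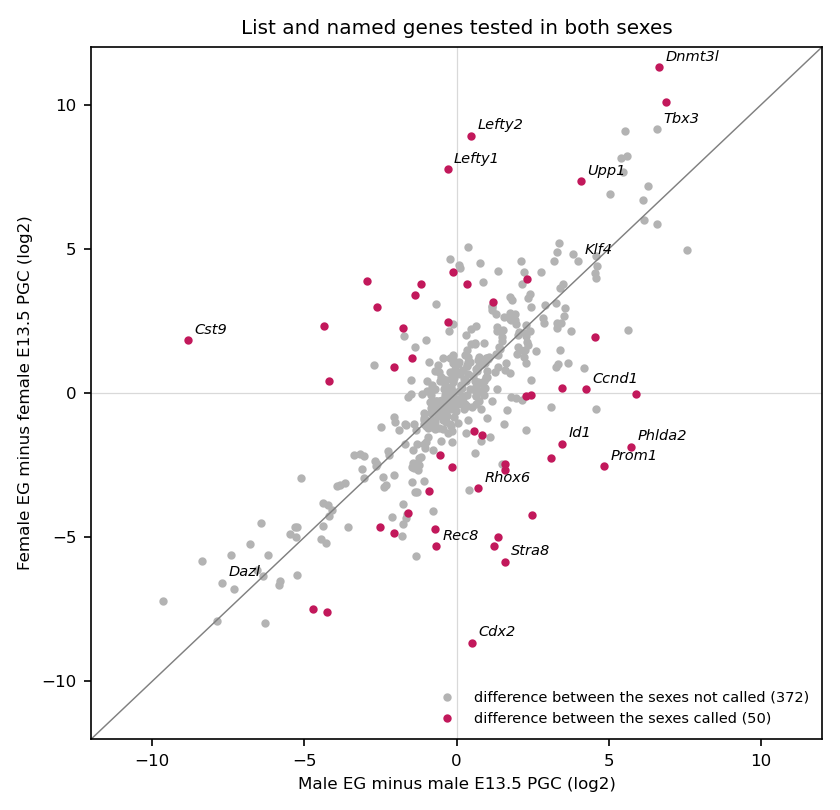
Log2 difference EG minus E13.5 PGC in males (horizontal) and in females (vertical) for list and named genes tested in both sexes; red points were called for the difference between the sexes (50) and grey points were not (372). The diagonal marks equal differences; Lefty1 and Lefty2 lie near 0 in males and far above 0 in females, and Cdx2 lies far below 0 in females alone.

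Within EG cells, male and female arrays differed in 150 of 21851 features (0.686%), 81 higher (0.371%) and 69 lower (0.316%) in males. Of these, 92 carried a gene symbol and thus a known chromosome, and 10 were X-linked (2 higher and 8 lower in males) and 2 Y-linked. For scale, 340 of the 9891 named genes tested between EG cells and E13.5 PGC, a slightly different set, were X-linked. The count was 9 without EG male replicate 1, 26 without EG male replicate 2, 28 without EG female replicate 2 and 358 without EG female replicate 1. Over 16 tested fibroblast markers the median male minus female difference was 2.86, against 0.03 over all features, and 0 were called in either direction. Their levels by array are given below, and the part of such cells in this contrast was not tested. Eif2s3y (7.82 ± 0.85) and Mgp, a matrix protein gene with -0.55, 0.55, -5.59 and -7.20 in EG cells (6.40 ± 0.74), kept the call on leaving out each of the 8 arrays. S100g (6.72 ± 1.36), Gbp2b (4.77 ± 1.03) and Enpp2 (4.64 ± 0.65) completed the 5 highest, where genes that no array of the lower sex measured are ranked by their bound, and Efhc2 (-4.43 ± 0.68), Xlr5c (-4.27 ± 0.83), Msln (-3.96 ± 0.71), Ripply3 (-3.82 ± 0.73) and Fthl17e (-3.69 ± 0.76) were the 5 lowest in males; each of these lost the call on leaving out at least 1 array.

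Female EG replicates were not alike on the X chromosome. Over 168 X-linked and 5741 autosomal genes measured on all 8 arrays, the median difference from the mean of both male arrays of the cell type was larger for X-linked than for autosomal genes by 0.1959 on EG female replicate 1 and 0.8444 on EG female replicate 2, and 0.6442 and 0.651 on the E13.5 female arrays. Xist, the RNA that coats an inactive X chromosome, had -6.82, -7.36, -6.23 and -7.42 in EG cells, against -7.76, -6.82, -6.57 and -6.44 in E13.5 PGC and was not called (-0.06 ± 0.60). Both male E13.5 values and that of E13.5 female replicate 1 lay below the dimmest measured signal of their arrays (-6.78, -4.99 and -6.55). The Xist difference therefore rests partly on unmeasured values and does not show equal levels. EG female replicate 2 stood apart in other ways. Of the 39 germ cell and meiosis list genes that fell, it was the highest of the 4 EG arrays for 24 (61.5%), against 38.5% for all genes that fell and 31.2% for all features tested. Smc1b (-1.62 there, and -6.83, -6.33 and -4.47 on the others), Dazl, Mael, Fkbp6 and Stag3 were among them. Without it the EG minus E13.5 count of calls was 8035, and the germ cell and meiosis genes named here kept their calls.

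**Figure D5:**
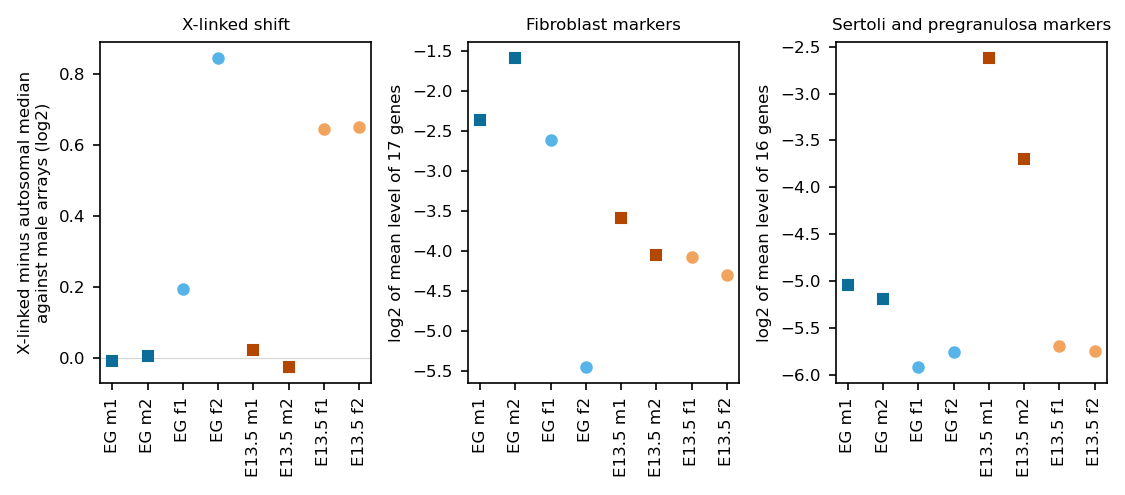
The panels show 3 measures on each array, EG cells left of E13.5 PGC: the X-linked shift in log2 units, and the log2 of the mean level of 17 fibroblast markers and of 16 Sertoli and pregranulosa markers; squares are male and circles female arrays. EG female replicate 2 had the highest X-linked shift (0.8444) and the lowest fibroblast level (-5.46), and the male E13.5 arrays had the highest Sertoli and pregranulosa levels.

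Markers of other cell types were compared between the groups. Of 17 fibroblast and feeder cell markers with a probe, 16 were measured on each male EG array (log2 of their mean level -2.36 and -1.59), 15 on EG female replicate 1 (-2.61), 10 on EG female replicate 2 (-5.46) and 8 to 13 on the E13.5 arrays (-4.31 to -3.59). Dcn, the matrix proteoglycan decorin, had -4.49, -4.60, -3.57 and -11.53 in EG cells, against -5.16, -5.54, -5.72 and -6.09 in E13.5 PGC, and Col3a1, a fibrillar collagen, had -4.11, -3.48, -5.22 and -11.50 in EG cells, against -4.95, -5.60, -6.05 and -5.76 in E13.5 PGC. EG female replicate 2 lay far below the other 7 arrays for both. Of 16 tested fibroblast markers 3 rose and 2 fell, and 0 higher and 0 lower remained called with the slide block. Tagln, a smooth muscle and fibroblast protein, rose by 2.53 ± 0.54 (slide-block adjusted p = 0.126). On that array naive pluripotency genes lay within or above the range of the other 3 EG arrays (Klf2 3.43, Esrrb 1.80 and Zfp42 -0.22). Alpha globin (Hba-a1) had -7.68, -7.82, -8.49 and -8.01 in EG cells, against -0.33, -2.32, -1.28 and -6.23 in E13.5 PGC; the E13.5 arrays spread widely, and the difference of -5.46 ± 1.35 lost its call with the slide block (adjusted p = 0.141). Nr5a1 (Sf1), of steroidogenic and supporting cells, fell by 2.76 ± 0.31, and Cst8 was measured on no EG array and was at least 31.5-fold lower. The part of somatic cells in the differences above was not tested.

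The 12 highest and 12 lowest genes that were called in each sex and did not overlap held several that stand in no list. A gene that no array of the lower side measured is ranked here by its bound, so that Cldn4, with a fitted difference of 7.30 ± 0.66, is not among them. Besides Dnmt3l, Slc7a3, Tbx3, Nr0b1, Eras and Spp1, the highest were Stmn2 (6.74 ± 0.40), a microtubule regulator of neurons, Psrc1 (6.41 ± 0.45), a spindle protein that is a Trp53 target, Urah (6.27 ± 0.40), which acts in urate breakdown, Plac8 (6.22 ± 0.55), Trh (6.09 ± 0.50), the precursor of thyrotropin-releasing hormone, and Fam25c (5.97 ± 0.31). Trh had 2.57, 2.34, 2.12 and 1.31 in EG cells, against -4.24, -3.20, -4.71 and -3.88 in E13.5 PGC and was measured on all 8 arrays. Besides Dazl, Tex12, Slc25a31, Brdt, Mov10l1, Spo11 and Smc1b, the lowest were Bnc1 (-8.44 ± 0.52), a zinc finger factor of germ cells and keratinocytes, Ccdc172 (-7.04 ± 0.73), Khdc1a (at least 91.5-fold lower), Aldh1a1 (-6.51 ± 0.74), a retinaldehyde dehydrogenase, and the ubiquitin ligase gene Rnf182 (-6.25 ± 0.28). Rnf182 had -6.41, -6.39, -7.46 and -6.85 in EG cells, against -0.42, -0.70, -0.63 and -0.36 in E13.5 PGC and was likewise measured on all 8 arrays. Bnc1 had -11.39, -11.54, -8.10 and -11.72 in EG cells, against -1.76, -1.85, -2.75 and -2.62 in E13.5 PGC, measured on 1 EG array only, so that its size rests on dim values.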

How the data were processed

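RNA of each sample (50 ng labelled, per the labels' protocols) was hybridised to a single-colour Agilent array. The deposited intensity of each spot is the background-subtracted processed signal of Agilent Feature Extraction 10.5.1.1, per the file headers. The authors' deposited log2 table equals log2 of that processed signal minus each array's median, to within 2.53e-06, and was used as an alternative. The deposited well-above-background, saturation and non-uniformity marks are other values, per the file headers.

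In the re-analysis 1417 control spots and 514 of 43803 probes marked non-uniform were left out. The log2 processed signal was scaled by each array's 75th percentile over the 7227 probes well above background on all 28 arrays. RefSeq accessions named 16751 probes, and 27052 stayed unnamed. Of several probes of a gene the one with the highest mean was kept, leaving 38726 features. A feature entered a comparison if both arrays of at least 1 compared group were well above background. limma 3.58.1 (R 4.3.3) fitted 14 group means over 28 arrays, with Benjamini-Hochberg adjustment over all features entered and calls at an adjusted p under 0.05. Where no array of the dim side was measured, "at least N-fold" sets the bright group's mean against, per array, the higher of the lowest measured signal and the probe's own. The fit was tested on simulated data with independent noise on each array. The simulation held no slide or scan day effect, so it cannot bear on such effects here.

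Gene lists, members and named genes were chosen with earlier results of these data known. Some list members are counted but not reported here by name. Named genes are list members, the 12 highest and 12 lowest EG minus E13.5 differences (called in each sex, groups not overlapping, unmeasured sides ranked by their bound), the 6 highest and 6 lowest interactions, and the 5 highest and 5 lowest differences between male and female EG cells. Alternatives were normexp background correction (offset 50, on median spot signals because mean signals were not used here), other scalings and filters, the deposited table, slide, scan day or replicate number as a block, the mean of probes, a common floor and leaving out each array. Comparisons against the E13.5 arrays of 1 scan day, and without 2 arrays together, were added after seeing the data. Replicate numbers were checked as a pairing: deviations of same-numbered samples correlated at 8e-04 to 0.4439 over 6 pairs of groups, not all over 0.1, so the number was not taken to pair samples across cell types. The highest was that of male and female E13.5 PGC, whose number also marks a shared slide and scan day, so the interaction was refitted with it as a block.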

Additional observations from a re-analysis of the deposited data

Results flagged for a closer look

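For the genes below the EG minus E13.5 difference was tested against itself between the sexes (male difference minus female difference, limma interaction) and was called. Positive values, in log2 units, mark a difference higher in males than in females: 9.17 for Cdx2, 7.58 for Phlda2, 7.43 for Stra8, 7.39 for Prom1, 6.71 for Pitx1, 6.54 for Msx2, 5.22 for Id1, 4.64 for Rec8, 4.11 for Ccnd1, 4.05 for Id3, 4.02 for Rhox6, 3.98 for Rhox9 and 2.29 for Pfkm. Negative values were -10.65 for Cst9, -8.45 for Lefty2, -8.07 for Lefty1, -6.95 for Nanos2, -6.92 for Tspan32, -6.81 for Pmaip1 and -4.01 for Tcl1. Leaving out single arrays ended the call of Pitx1 and Tcl1 in 8 cases each, of Stra8 and Nanos2 in 6 each, of Tspan32 in 5, of Cdx2 in 3 and of Id1 in 1. No group has 4 or more arrays, so no single array was tested as standing apart.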

How the results depend on the processing

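The count of EG minus E13.5 calls (8897) was 17059 with normexp, 24484 with no filter, 2372 with slide as a random block and 5130 with a common floor, and 7160 to 8286 on leaving out an array. The male count (4940) was 14361, 20518 and 1537 under the first 3 of these, 2685 with only the 8 arrays in the fit and 3251 against the E13.5 arrays of the first scan day (2500 to 4919 on leaving out an array). The female count (6818) was 12748 with normexp, 3438 with the deposited values, 3014 with slide as a random block and 4338 with a common floor (4661 to 7035). The interaction count (495) was 54 with normexp, 284 with the deposited values, 319 with no filter, 3 with only the 8 arrays, 1666 with slide as a random block, 1095 with a common floor, 125 against the first scan day and 235 without EG female replicate 1 and E13.5 male replicate 2 together. Leaving out 1 array gave 145 to 898: 145 and 186 without EG male replicates 1 and 2, 293 without EG female replicate 2, 898 and 277 without E13.5 male replicates 1 and 2, and 189 and 240 without E13.5 female replicates 1 and 2. The count between male and female EG cells (150) was 67 with normexp, 228 with the deposited values, 86 with no filter, 1 with only the 8 arrays, 642 with slide as a random block, 581 with a common floor, 392 without those 2 arrays together and 9 to 358 on leaving out 1. The EG minus ES count (1144) was 263 with normexp, 692 after quantile normalization, 712 with no filter, 0 with slide as a random block and 316 to 1306 on leaving out an array. The causes of these shifts were not tested.

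Of the 8897 calls, 6627 kept direction and call with normexp, where 1411 changed sign; the numbers were 4905 and 286 with the deposited values, 6894 and 48 after quantile normalization, 8428 and 78 with the mean of probes, 2372 and 0 with slide as a random block. With a common floor 4566 kept both and 3314 did not keep their sign, where differences of exactly 0 are counted too. Among named genes the EG minus E13.5 difference changed sign for Fthl17e (0.29 with a common floor), Gbp2b (-0.048), Msln (-0.12), Ripply3 (-0.55) and Fgfr4 (-0.50), the last 4 with normexp. With the replicate block, which pairs no EG with E13.5 samples here, the counts were 9150 for EG minus E13.5, 5163 in males, 7077 in females, 503 for the interaction (among the genes named for it, the call of Nodal alone changed), 138 between male and female EG cells and 1228 for EG minus ES. Scan day as a fixed block could not be fitted for EG minus E13.5; it gave 740 interactions and 207 differences between the EG sexes. Signal over background limits dim probes most on E13.5 male replicate 2, where 33.0% of probes were measured.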

Other observations

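A list of X-linked homeobox and testis genes fell in 10 of 11 tested cases and rose in 0 (median -2.71, -3.06 to -1.20 over the settings), and 0 higher and 4 lower remained called with the slide block. Tex16 was measured on no EG array and was at least 13.5-fold lower. Tktl1, a transketolase-like gene, had -7.33, -6.88, -9.35 and -6.18 in EG cells, against -5.44, -5.27, -3.08 and -3.39 in E13.5 PGC and fell by 3.14 ± 0.45 (slide-block adjusted p = 0.072). Rhox5, the member best known from testis and early embryo, had 1.25, 1.33, -0.51 and 1.40 in EG cells, against 0.93, 1.02, 1.77 and 1.86 in E13.5 PGC and was not called (-0.53 ± 0.30).

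In the list of fetal male germ cell genes 4 of 11 rose and 4 fell, and 3 higher and 3 lower remained called with the slide block. In males 1 of 11 rose and 5 fell, and in females 5 of 10 rose and 2 fell. For the interaction between the sexes 0 of 11 were called positive and 5 negative. Cyp26b1, which degrades retinoic acid, had -8.88, -8.63, -7.77 and -9.78 in EG cells, against -3.10, -4.20, -5.78 and -5.91 in E13.5 PGC, highest in male PGC, and fell by 4.02 ± 0.82 (slide-block adjusted p = 0.207). Of the genes of the 2-cell stage embryo 4 of 6 rose (median 2.30, or 0.82 with bounds), but 0 higher and 0 lower remained called with the slide block and normexp gave 1 higher and 2 lower (median -1.01). In males 0 of 6 were called (10.1% of all features were higher) and in females 5 of 6 rose (14.3% of all features). The female median was 4.14, or 2.44 with bounds. Only 1 of 6 was called for the interaction between the sexes. Tcstv3, of that list, had -9.16, -8.42, -8.98 and -3.78 in EG cells, against -9.02, -7.21, -8.80 and -10.18 in E13.5 PGC and was not called (1.21 ± 0.94), and EG female replicate 2 lay above the other 7 arrays.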
